A study of Saccharomyces cerevisiae with 7 samples.

Results

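The step between the 2 h and the 3 h sample of a meiotic time course was examined in budding yeast (Saccharomyces cerevisiae), the interval named as passage from premeiotic S phase into prophase. For every open reading frame (ORF) the log2 value at 2 h was subtracted from that at 3 h, and 5635 of the 6141 ORFs in the table had both values. The cells carried spo11-Y135F, an allele of SPO11 whose product cannot cleave DNA because its catalytic tyrosine is exchanged, so that programmed double-strand breaks do not form. By their titles all 7 samples came from this mutant, and no wild type was analysed here. The 2 groups compared were mutant cells at 3 h and mutant cells at 2 h, with 1 array each, and the samples at 1, 4, 5, 6 and 8 h served to follow the same ORFs. On each array Cy5 marked mRNA of the time point and Cy3 a mixture of mRNA from the whole course, and the deposited value is the log2 of this ratio after division by the ratio at 0 h. A value of 1 therefore stands for a transcript 2-fold above its level at 0 h, and a difference of 1 between samples for a 2-fold difference. With 1 array at each time there is no replicate spread and no test, so every difference describes these arrays, whose number limits the precision. The series states 2 independent cultures, but the sources used here do not say how they enter each value.

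In yeast meiosis a single round of DNA replication is followed by prophase, in which Rec8 cohesin and the proteins Red1 and Hop1 build a chromosome axis, breaks are made on that axis, and the synaptonemal complex joins homologous chromosomes along their length. The genes for these steps are early meiotic genes, switched on through Ime1 at the promoters that Ume6 otherwise represses. Genes of the divisions and of spore formation follow as middle genes under the transcription factor Ndt80, while core histone genes are transcribed mainly while DNA is replicated. Each value is from the RNA of a whole culture, in which fewer cells of a type and less RNA per cell cannot be told apart.

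Across the 5635 ORFs the median difference was -0.00, with quartiles of -0.44 and 0.40, and 2798 ORFs were above 0. At least 2-fold higher at 3 h than at 2 h were 273 ORFs, which is 4.84% of those measured, and 370 ORFs, or 6.57%, were at least 2-fold lower. After quantile normalization the numbers were 555 higher and 553 lower. That method gives every column the mean distribution of all 7 columns. Standard deviations across ORFs at 4, 5, 6 and 8 h were 1.06, 1.35, 1.49 and 1.11, above those at 2 and 3 h. The method therefore widens the 2 h and 3 h columns by construction, and its counts and medians are not on the scale of the deposited values. In the values as deposited the largest positive difference was 2.71 and the largest negative one -2.86. At the edge of the threshold, ALD3 with 1.0019 was counted and SAS2 with 0.9991 was not, and on the other side RPL42B with -1.0011 was counted. The column medians were -0.02 at 3 h and 0.00 at 2 h, with standard deviations across ORFs of 0.86 at 3 h and 0.83 at 2 h.

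**Figure D1:**
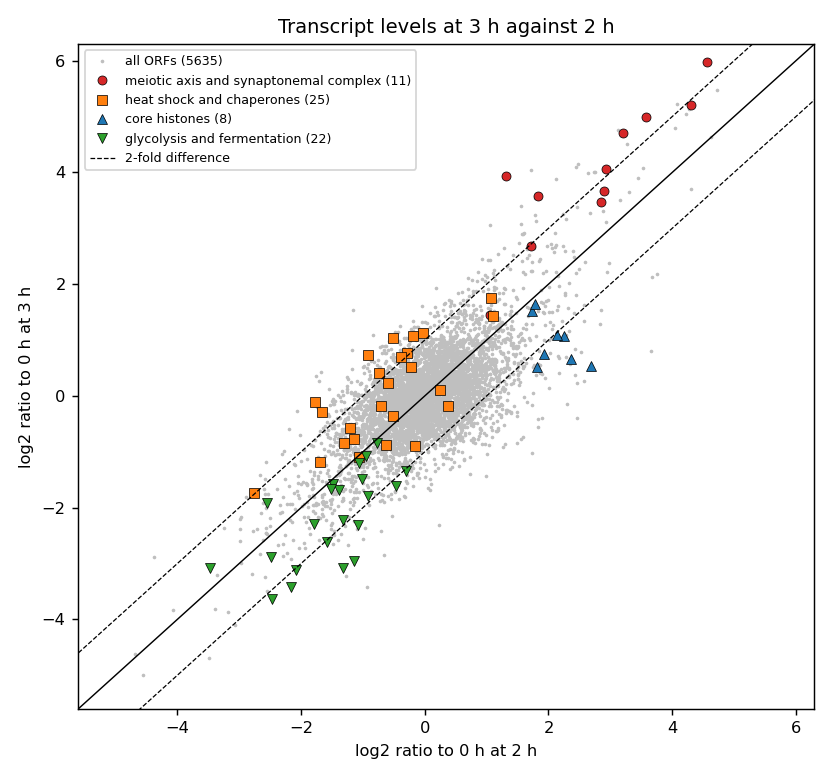
Log2 ratio to 0 h at 3 h (vertical axis) against that at 2 h (horizontal axis) for 5635 ORFs, with the line of equality and dashed lines at a 2-fold difference. The 11 axis and synaptonemal complex genes lie above the line of equality, the 8 core histone genes below it, most chaperones above it and most glycolytic genes below it.

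The named interval was first set against its markers. Core histone transcripts, which mark S phase, were lower at 3 h than at 2 h for 8 of 8 genes (6 of 8 after the centring by coding length described below), while transcripts of the prophase axis were higher for 11 of 11. The plot of 3 h against 2 h shows both groups above 0 h at 2 h already. Their list medians were 2.89 for the axis genes and 2.04 for the core histones at 2 h, so the 2 h sample held prophase transcripts as well as S phase transcripts. Genes of the replication machinery itself were mostly within 2-fold between the samples, as given below for each list. So were most ORFs, of which 11.4% were at least 2-fold apart either way.

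The axis and synaptonemal complex list had a median difference of 1.13, the highest of the 44 lists in the values as deposited, against -0.00 over all ORFs. Of its 11 measured genes 6 were at least 2-fold higher at 3 h, where 4.84% of all ORFs were, and 0 were at least 2-fold lower. After quantile normalization of the 7 columns, which brings the top values of each time to a common level, the list median was 0.52 and no longer the highest, with 0.98 for heat shock and chaperones and 0.77 for the proteasome. GMC2 (YLR445W), a protein of the synaptonemal complex's central element, was at 3.94 at 3 h, against 1.31 at 2 h, a difference of 2.63 or 6.20-fold. Its values at 1, 2, 3, 4, 5, 6 and 8 h were 1.15, 1.31, 3.94, 3.98, 3.77, 2.74 and 1.67, so that it was low until 2 h, high at 3 h and within 2-fold of that until 5 h. NDJ1 (YOL104C), which ties telomeres to the nuclear envelope in prophase, was at 3.58 at 3 h, against 1.83 at 2 h, a difference of 1.76.

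ZIP1 (YDR285W), the transverse filament protein of the synaptonemal complex, was at 4.70 at 3 h, against 3.21 at 2 h. REC8 (YPR007C), the meiotic cohesin subunit, was at 5.99 at 3 h, against 4.57 at 2 h, a difference of 1.42. RED1 (YLR263W), an axis protein, was at 4.07 at 3 h, against 2.94 at 2 h, with 1.95 at 1 h and 3.93 at 4 h around them. ZIP1, REC8 and RED1 were thus farther above 0 h at 2 h than GMC2 was, and higher still at 3 h. MEK1, the kinase that acts on the axis to favour repair from the homologue, had a difference of 1.41 and was chosen after its value was seen. Below the 2-fold mark were HOP1 (YIL072W), the other axis protein, with 5.21 at 3 h against 4.31 at 2 h, and MPS3, a nuclear envelope protein that holds telomeres, with 1.45 at 3 h against 1.05 at 2 h. After quantile normalization the difference of REC8 was 0.74, the difference of ZIP1 0.52, the difference of RED1 0.39 and the difference of HOP1 0.00, while the difference of GMC2 was 3.05 and the difference of NDJ1 1.94. CSM4, which acts in telomere-led chromosome movement, was at 3.47 at 3 h, against 2.86 at 2 h. The smallest difference in the list was thus the 0.40 of MPS3, which also serves the spindle pole body of dividing cells.

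**Figure D2:**
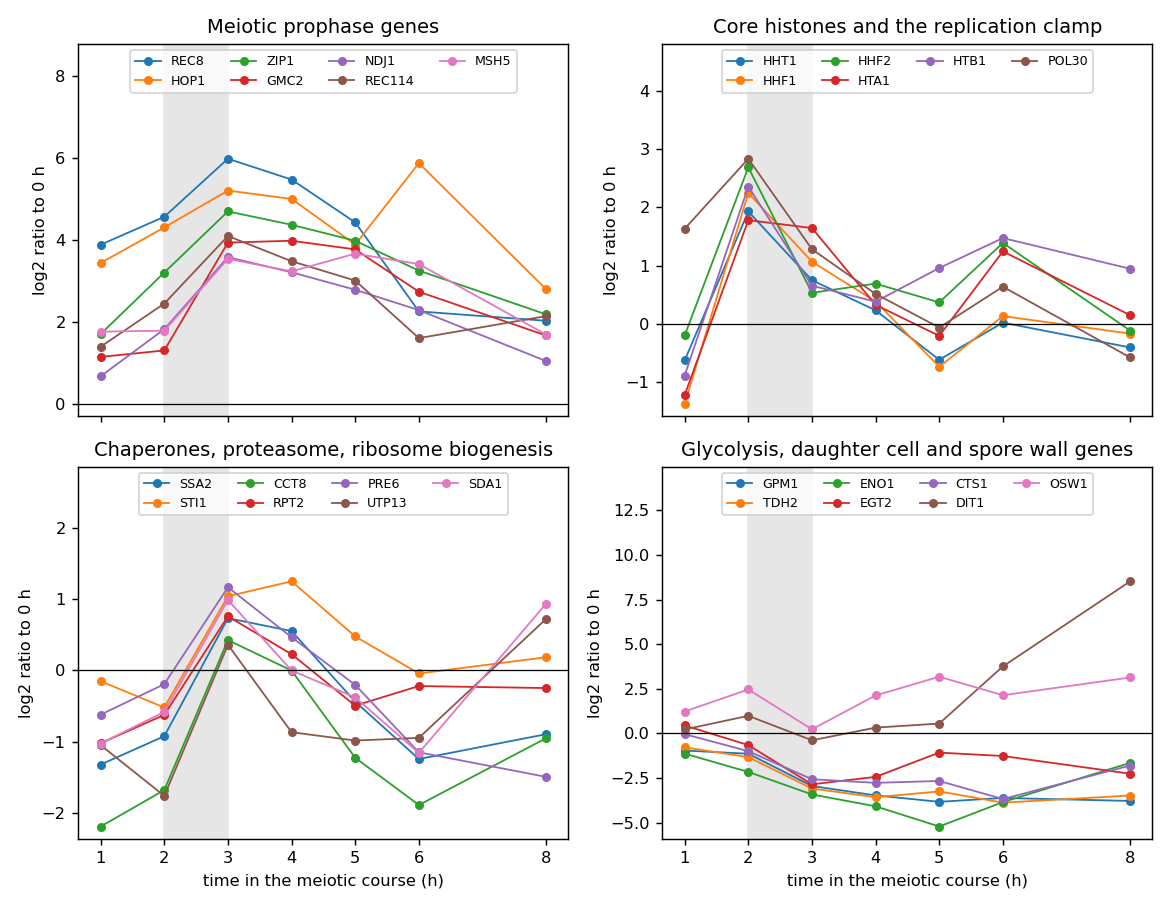
Log2 ratio to 0 h (vertical axis) against time in h for single genes in 4 panels, 1 array for each point, with the interval of 2 to 3 h shaded. GMC2 stands at 3.94 at 3 h, against 1.31 at 2 h, HHF2 peaks at 2 h with 2.69, the chaperone, proteasome and ribosome biogenesis genes lie highest at 3 or 4 h within the first 6 h, and GPM1 and TDH2 are at or below -2.95 from 3 h on.

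Among the ZMM and crossover genes, whose products stabilise recombination intermediates that become crossovers, 5 of 15 measured genes were at least 2-fold higher at 3 h and 0 lower, against 4.84% and 6.57% of all ORFs. The list median was 0.29. MSH5 (YDL154W), a MutS homologue that binds such intermediates, was at 3.54 at 3 h, against 1.79 at 2 h, a difference of 1.75, and had the same level at 1 h as at 2 h with 1.77. HFM1 (YGL251C), the helicase also called Mer3, was at 4.00 at 3 h, against 2.64 at 2 h. The remaining 3, chosen after their values were seen, were MSH4 with a difference of 1.24, CST9 with 1.31 and ZIP2 with 1.12. These 5 genes act in meiosis only, as does SPO22 (the ZMM protein Zip4), which had -0.18. EXO1 and SGS1, which act in dividing cells too, both had 0.29, and these and SPO22 were also picked after their values were seen. SLX4 and YEN1, which act in cutting joint molecules, were lowest with -0.49 and -0.42.

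In the list for double-strand break formation 3 of 12 measured genes were at least 2-fold higher and 0 lower, with a median of 0.48. The higher share was 25%, against 4.84% of all ORFs. REC114 (YMR133W), a partner of Spo11 in break formation, was at 4.10 at 3 h, against 2.45 at 2 h, a difference of 1.65. MER1 (YNL210W), a meiotic splicing factor, was at 2.54 at 3 h, against 1.18 at 2 h. SPO11 (YHL022C), whose product cannot cleave DNA in this strain, was at 2.33 at 3 h, against 1.32 at 2 h. Its difference of 1.01 lay just past the threshold. The values of REC107, whose transcript Mer1 splices, went the other way, with 0.78 at 3 h against 1.23 at 2 h, and those of SAE2, a cofactor of break end processing, were 0.25 at 3 h and 0.70 at 2 h.

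Strand exchange genes had a median of 0.26. Of 12 measured members 1 was at least 2-fold higher (8.33%, against 4.84% of all ORFs) and 0 lower. That gene was MND1 (YGL183C), which assists the meiotic recombinase, with 4.01 at 3 h against 2.75 at 2 h. DMC1 (YER179W), the recombinase itself, was at 4.80 at 3 h, against 4.05 at 2 h, and CSM2 of the Shu complex at 1.80 at 3 h, against 1.02 at 2 h. After quantile normalization the difference of DMC1 was 0.063. RAD54 and PSY3, which act in homologous recombination also outside meiosis, had differences of -0.44 and -0.40. Of 12 measured checkpoint genes 0 were 2-fold apart in either direction, against 11.4% of all ORFs, and their median was -0.01. The ends of that list were TEL2 with 0.75, CHK1 with 0.75, RAD17 with -0.47 and MEC1 with -0.81.

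The genes that regulate entry into meiosis had a median of 0.58, and 14 of 15 genes were above 0, against 2798 of 5635 ORFs in all. SLZ1 (YNL196C), a partner of the mRNA methyltransferase of meiosis, was at 4.15 at 3 h, against 2.47 at 2 h. RIM4 (YHL024W), an RNA-binding protein that holds back translation, was at 2.43 at 3 h, against 1.05 at 2 h. These were the 2 entry genes at least 2-fold higher, 13.3% of the list against 4.84% of all ORFs. IME1 (YJR094C), the master regulator, was close to level with 3.50 at 3 h against 3.15 at 2 h, and IME2 (YJL106W), the kinase it activates, was at 5.14 at 3 h, against 4.28 at 2 h. After quantile normalization the difference of IME1 was -0.50 and the difference of IME2 0.15, so their order between the samples depends on the scaling. UME6 had a difference of 0.42, SIN3, a corepressor, of 0.07, and RME1, a repressor of IME1, of -0.03.

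Core histone genes had the lowest median of the 44 lists, -1.18, and 6 of 8 were at least 2-fold lower at 3 h, where 6.57% of all ORFs were. The median was -1.86 after quantile normalization, which widens both columns. HHF2 (YNL030W), a gene for histone H4, was at 0.54 at 3 h, against 2.69 at 2 h, a difference of -2.15 or 4.45-fold. Its values over the whole course were -0.20, 2.69, 0.54, 0.69, 0.37, 1.39 and -0.11, highest at 2 h. HHT1 (YBR010W), for histone H3, was at 0.75 at 3 h, against 1.93 at 2 h, and HTB1 (YDR224C), for H2B, at 0.66 at 3 h, against 2.36 at 2 h. The genes for H2A stood apart, with HTA1 (YDR225W) at 1.65 at 3 h, against 1.78 at 2 h, and HTA2 (YBL003C) at 1.52 at 3 h, against 1.74 at 2 h. At 4 h they were at 0.33 and 0.09, so the H2A genes were low one sample later than the others. HTA1 and HTB1 share a promoter region from which they are transcribed apart, yet their differences were -0.14 and -1.70. HTA2 and its partner HTB2 showed the same contrast, with -0.21 and -1.29; HTB2 was chosen after its value was seen. Near-identical genes may share signal on an array, and HHF1 with HHF2 (-1.18 and -2.15) and HHT1 with HHT2 (-1.18 and -1.06) are such pairs. Core histone ORFs are short, and coding length moved with the difference in these arrays, as described below. With each ORF centred on the median of its length class, the core histone median was -0.82 and 2 of the 8 were at least 2-fold lower, while HTA1 and HTA2 turned to 0.22 and 0.14; the part of length in the result was not tested.

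Other replication genes differed less. Of 26 measured genes for polymerases, clamp and fork, 0 were at least 2-fold higher and 3 lower (11.5%, against 6.57% of all ORFs). Their median was -0.25. POL30 (YBR088C), the sliding clamp PCNA, was at 1.28 at 3 h, against 2.84 at 2 h, a difference of -1.55, and its course of 1.63, 2.84, 1.28, 0.52, -0.06, 0.64 and -0.57 peaked with the histones. DPB2, a subunit of DNA polymerase epsilon, was at -0.11 at 3 h, against 1.16 at 2 h. The third, TOF1 of the fork protection complex, had a difference of -1.06 and was chosen after its value was seen, while CSM3, its partner, had 0.59. The licensing and helicase list had a median of 0.22, with 1 of 21 genes at least 2-fold higher, MCM4, and 0 lower. The higher share of 4.76% is close to the 4.84% of all ORFs. MCM4 (YPR019W) was at 0.41 at 3 h, against -0.64 at 2 h, while its partner in the helicase, MCM2, had a difference of 0.63. ORC5 of the origin recognition complex had -0.99, PSF2 of the GINS complex -0.95 and CDC45, the helicase cofactor, -0.48.

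For the supply of deoxynucleotides 1 of 11 genes was at least 2-fold lower (9.09%, against 6.57% of all ORFs) and 0 higher. The list median of -0.46 became -0.11 after centring by coding length. RNR1 (YER070W), the main large subunit of ribonucleotide reductase, was at 0.35 at 3 h, against 0.82 at 2 h. RNR3 (YIL066C), its damage-inducible form, was at -0.39 at 3 h, against 0.61 at 2 h, just past the 2-fold mark. Among G1 and S phase regulators 0 of 15 were at least 2-fold higher and 3 lower (20%, against 6.57% of all ORFs). SIC1, an inhibitor of S phase cyclin kinase, was at -0.84 at 3 h, against 0.48 at 2 h, and PCL1, a G1 cyclin, at -0.40 at 3 h, against 1.06 at 2 h. The S phase cyclin genes CLB5 and CLB6, by contrast, had differences of only -0.20 and -0.45 and were higher again at 4 h, with 2.95 and 2.60. Among 12 measured genes of mitotic cohesin and cohesion the median was -0.44, and ECO1, the cohesin acetyltransferase, was at 1.03 at 3 h, against 2.04 at 2 h. The cohesin loader SCC2 had -0.94, its partner SCC4 0.30 and the securin gene PDS1 0.27.

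Histone chaperones and variant histones had a median of 0.10, with 1 of 14 at least 2-fold higher (7.14%, against 4.84% of all ORFs). RTT106, a chaperone that deposits histone H3 and H4 and also represses histone genes, was at 0.25 at 3 h, against -0.83 at 2 h, opposite to the core histone genes. RLF2 and CAC2, subunits of the same chromatin assembly factor, had differences of 0.81 and -0.86. CSE4, the centromeric H3, was at 0.54 at 3 h, against 1.32 at 2 h. Of 19 measured kinetochore genes 1 was at least 2-fold higher (5.26%, close to the 4.84% of all ORFs) and 0 lower. That was SPC24 (YMR117C), with 1.88 at 3 h against 0.79 at 2 h, while NDC80 (YIL144W), a subunit of the same complex, was at 1.90 at 3 h, against 1.12 at 2 h. MTW1 and CHL4 were lowest with -0.92 and -0.88.

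Most genes of the middle programme were within 2-fold between the samples. Yet in the lists of middle control, prospore membrane and spore wall genes the higher or the lower share was above that of all ORFs. Middle control and division genes had 3 of 18 members at least 2-fold higher and 1 lower, with a median of 0.36. These shares were 16.7% and 5.56%, against 4.84% and 6.57% of all ORFs. NDT80 (YHR124W) was at 1.74 at 3 h, against 1.07 at 2 h, with 5.17 one hour later. The gene for polo kinase, CDC5 (YMR001C), an Ndt80 target, was at 0.07 at 3 h, against -1.26 at 2 h, a difference of 1.33 that put it near its level at 0 h. SPO13 (YHR014W), an early gene that sets the pattern of the first division, was at 4.75 at 3 h, against 3.12 at 2 h. CLB1 was low in both samples, with -2.46 at 3 h against -2.57 at 2 h. SPO12, a regulator of exit from division, had a dip at 3 h, with 0.87, 2.28, 1.09 and 2.23 at 1, 2, 3 and 4 h.

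The prospore membrane list had a median of -0.03, with 4 of 24 genes at least 2-fold higher and 1 lower. These shares were 16.7% and 4.17%, against 4.84% and 6.57% of all ORFs. ADY3 (YDL239C), of the leading edge of the prospore membrane, was at 1.94 at 3 h, against 0.18 at 2 h, and SPR3, a sporulation septin, at 1.72 at 3 h, against 0.40 at 2 h. ADY4, of the meiotic spindle pole body, went the other way with 0.58 at 3 h against 1.83 at 2 h, and was at 2.83 at 4 h. Spore wall genes had a median of -0.31, with 1 of 19 at least 2-fold higher (5.26%) and 4 lower (21.1%). GAS4, a glucan-modifying enzyme of the spore wall, was at 1.20 at 3 h, against -0.22 at 2 h. OSW1 (YOR255W), which acts in the outer spore wall, was at 0.23 at 3 h, against 2.46 at 2 h, a difference of -2.23, and at 2.13 at 4 h. DIT2 (YDR402C), an enzyme of dityrosine synthesis, was at -0.71 at 3 h, against 0.99 at 2 h, and its divergently transcribed neighbour DIT1, chosen after its value was seen, had a difference of -1.37. ADY4, OSW1 and DIT2 thus had a low point at 3 h between higher values at 2 and 4 h.

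The mitotic CLB2 cluster, genes of mitosis in dividing cells, had a median of -0.24 with 1 of 16 members 2-fold higher (CDC5) and 1 lower (ALK1, a mitotic kinase, with -1.24). Each is 6.25% of the list, where 4.84% of all ORFs were higher and 6.57% lower. CLB2, the main mitotic cyclin, was low in both samples with -0.87 at 3 h against -1.84 at 2 h. Tubulins and spindle motors had a median of 0.09. CIK1, which binds the motor Kar3, was at 1.43 at 3 h, against 0.16 at 2 h, while KAR3 itself had a difference of -0.52 and the motor gene CIN8 of -1.06. TUB3, an alpha tubulin, was at 1.05 at 3 h, against 0.07 at 2 h.

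The list of heat shock proteins and chaperones had a median of 0.69, and 10 of its 25 genes were at least 2-fold higher at 3 h and 0 lower, against 4.84% and 6.57% of all ORFs. After quantile normalization, which widens both columns, its median was 0.98. Of the 25, 20 were above 0. SSA2 (YLL024C), a cytosolic Hsp70, was at 0.74 at 3 h, against -0.92 at 2 h, a difference of 1.66 or 3.16-fold. Its course was -1.32, -0.92, 0.74, 0.55, -0.44, -1.25 and -0.90, so it was above 0 h at 3 and 4 h alone. SSB2 (YNL209W), a ribosome-bound Hsp70, was at -0.11 at 3 h, against -1.78 at 2 h, but its near-identical copy SSB1 (YDL229W) was at -0.18 at 3 h, against 0.37 at 2 h. Of genes chosen after their values were seen, STI1, which links Hsp70 to Hsp90, had 1.56, SSE1, an exchange factor, 1.37, YDJ1, a co-chaperone, 1.26, and HSC82, an Hsp90, 1.16. HSP12, a small stress protein of the membrane, was lowest with -0.90 at 3 h against -0.16 at 2 h. Of the heat-inducible members, SSA4 had 1.09, HSP104, a disaggregase, 0.63, HSP26 0.16 and HSP42 -0.15, again picked after their values were seen. After centring by coding length the list median was 0.52 and 5 genes were at least 2-fold higher.

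The CCT chaperonin, the ring that folds actin and tubulin, was looked at because CCT8 was among the top genes, and so was chosen after its values were seen. CCT8 (YJL008C) was at 0.43 at 3 h, against -1.68 at 2 h, a difference of 2.11, and CCT7 was at 0.24 at 3 h, against -1.19 at 2 h. Of 8 subunits 7 were measured, 2 of them at least 2-fold higher, where 4.84% of all ORFs were. Their median was 0.71. CCT6 went the other way with -0.84 at 3 h against -0.26 at 2 h, so subunits of a single ring differed in sign. ACT1 (YFL039C), which encodes actin, was at -0.79 at 3 h, against -1.17 at 2 h.

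Proteasome genes had a median of 0.51, and 9 of 34 measured genes were at least 2-fold higher and 0 lower, against 4.84% and 6.57% of all ORFs. Of the 34, 27 were above 0. RPT2 (YDL007W), an ATPase of the regulatory particle, was at 0.76 at 3 h, against -0.62 at 2 h, and PRE6 (YOL038W), an alpha subunit of the core, at 1.17 at 3 h, against -0.19 at 2 h. Chosen after their values were seen, 5 of the 6 regulatory ATPase genes were at least 2-fold higher, RPT1 with 1.02, RPT6 with 1.05, RPT3 with 1.18, RPT4 with 1.19 and RPT2 with 1.39, while the sixth, RPT5, had 0.16. RPN4, the transcription factor of proteasome genes, had a difference of 0.92, also picked after its value was seen. The lowest members were PRE4 of the core with -0.42 and RPN9 of the lid with -0.15. The list median over the course was -0.40, -0.07, 0.66, 0.41, 0.05, -0.14 and -0.86, highest at 3 h, and the median difference was 0.65 after centring by coding length. Autophagy genes, by comparison, had a median of -0.06, or 0.01 after quantile normalization, with ATG17 (1.42) and ATG7 (1.21) at least 2-fold higher and 0 of 34 lower. The higher share was 5.88%. Of vacuolar proteases PRB1, proteinase B, was at 1.45 at 3 h, against 0.22 at 2 h. Its inhibitor PBI2 was at -1.13 at 3 h, against 0.64 at 2 h.

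**Figure D3:**
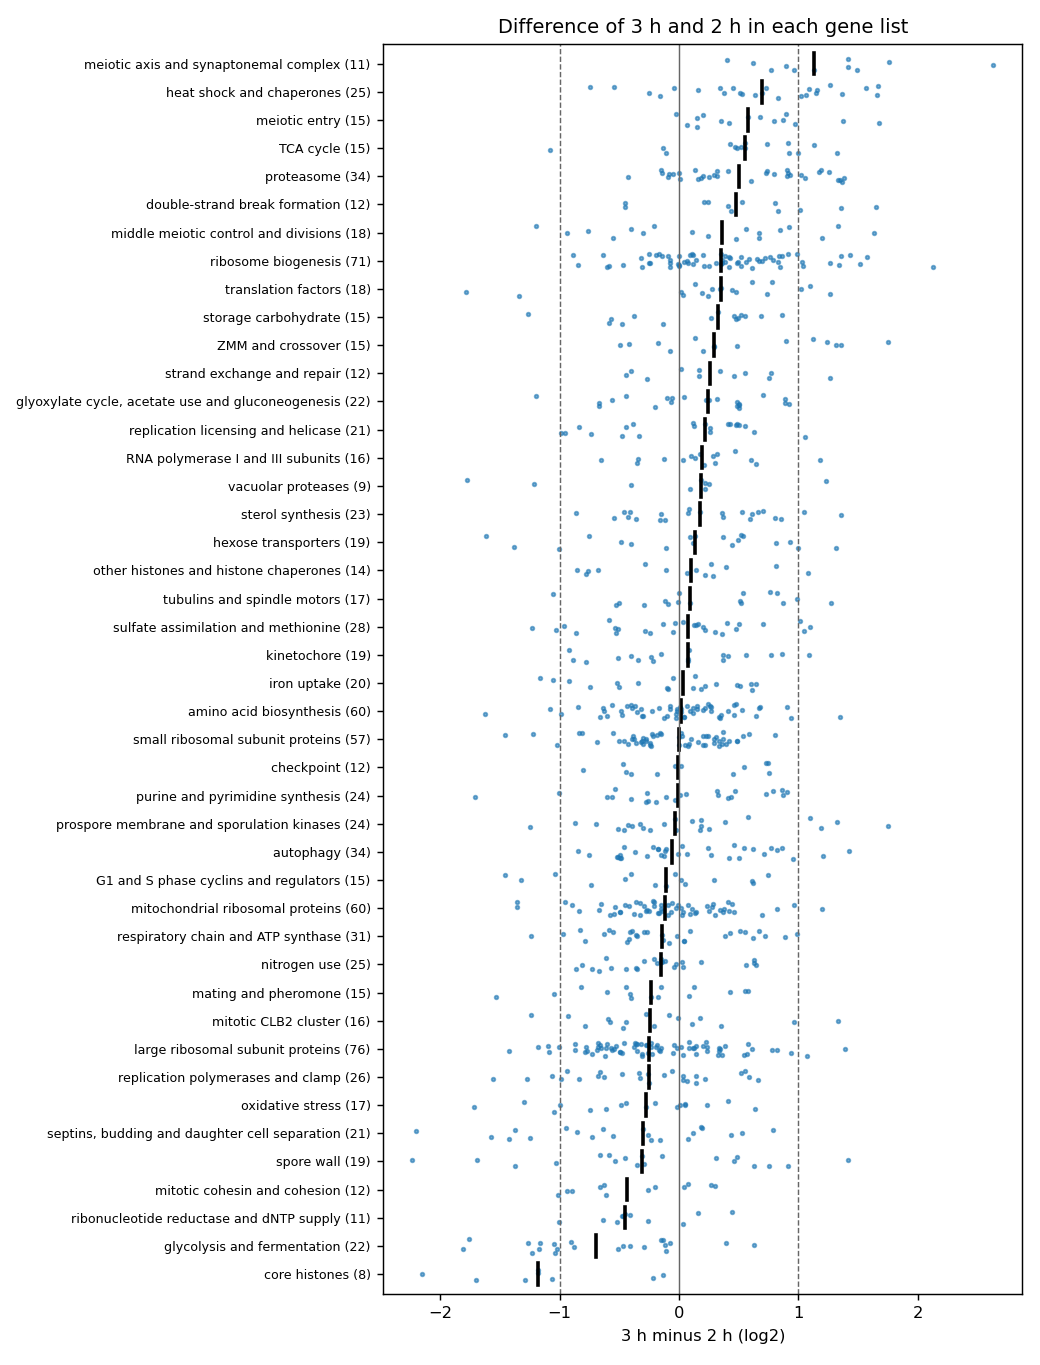
Difference of 3 h and 2 h (log2, horizontal axis) for the measured members of 44 gene lists (points, number in brackets), with list medians as black bars and dashed lines at a 2-fold difference. The medians run between 1.13 for the axis and synaptonemal complex list and -1.18 for the core histones, and most lists have members on both sides of 0.

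Of 71 measured ribosome biogenesis genes 9 (12.7%) were at least 2-fold higher and 0 lower, against 4.84% and 6.57% of all ORFs. The median difference was 0.36. UTP13 (YLR222C), of the complex that processes small subunit rRNA, was at 0.36 at 3 h, against -1.76 at 2 h, a difference of 2.13, and was at -0.87 at 4 h. SDA1 (YGR245C), needed for large subunit assembly, was at 0.99 at 3 h, against -0.58 at 2 h, and at -0.00 at 4 h. RRP8 and UTP22 were lowest with -0.89 and -0.85. The list median over the course was -0.18, -0.29, -0.05, -0.45, -0.45, -0.19 and 0.50, so 3 h stood above its neighbours without passing 0 h. Large subunit proteins had a median of -0.25, with 2 of 76 higher (RPL4A at 1.39 and RPL3 at 1.07) and 5 lower, RPL35A the lowest with -1.42. The 5 lower genes are 6.58% of the list, close to the share of all ORFs. After centring by coding length 2 were at least 2-fold lower. Small subunit proteins had a median of 0.00, with 0 of 57 higher and 3 lower (5.26%), RPS28A the lowest with -1.46. Over 55 A and B copies of ribosomal proteins the gap between copies had a median of 0.49 and a maximum of 1.39, and 3 pairs were at least 2-fold apart.

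For RNA polymerase I and III 1 of 16 genes was at least 2-fold higher, RPC40, a subunit of both, with -0.36 at 3 h against -1.54 at 2 h. That is 6.25% of the list, where 4.84% of all ORFs were higher and 6.57% lower. Translation factors had a median of 0.35, with 3 of 18 higher (16.7%) and 2 lower (11.1%). TEF2 (YBR118W), for elongation factor 1A, was at -0.05 at 3 h, against -1.15 at 2 h, and its identical twin TEF1, chosen after its value was seen, had 1.02. TEF4, for elongation factor 1B, was at 0.23 at 3 h, against -1.03 at 2 h. Outside the list, ZPR1 (YGR211W), which helps elongation factor 1A to fold, was at 0.27 at 3 h, against -1.71 at 2 h. At 4 h ZPR1 was at -1.66 again. The pair for elongation factor 2 did not move together, since EFT1 (YOR133W) was at -1.69 at 3 h, against 0.09 at 2 h and EFT2, picked after its value was seen, at -1.43 at 3 h, against -2.04 at 2 h. The copies encode the same protein, so their gap of 2.39, like that of 2.21 between SSB1 and SSB2, limits what single rows of such pairs show. Mitochondrial ribosomal proteins had a median of -0.12, which was 0.07 after centring by coding length, with 1 of 60 higher (1.67%) and 2 lower (3.33%). The higher gene of the list was MRPS35, with a difference of 1.20. MNP1 (YGL068W), a mitochondrial ribosomal protein outside the list, was at 0.82 at 3 h, against -1.18 at 2 h. With -0.81 at 4 h it was above 0 h in the 3 h sample alone among the first 4.

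Transcripts of glycolysis and fermentation were lower at 3 h, with a median of -0.70, 9 of 22 genes at least 2-fold lower and 0 higher, against 6.57% and 4.84% of all ORFs. GPM1 (YKL152C), phosphoglycerate mutase, was at -2.95 at 3 h, against -1.14 at 2 h, a difference of -1.81 or 3.50-fold. TDH2 (YJR009C), a glyceraldehyde phosphate dehydrogenase, was at -3.09 at 3 h, against -1.33 at 2 h, with values between -3.25 and -3.88 at the later times. The list median was -0.87, -1.36, -2.07, -2.90, -2.69, -2.64 and -2.01 over the course, so it was lower at each sample until 4 h. The hexokinase genes HXK1 and HXK2 went the other way with 0.63 and 0.40, both far below 0 h in both samples. ADH1 and TDH3, chosen after their values were seen, had -1.23 and -1.17. The median after centring by coding length was also -0.70, with 10 genes at least 2-fold lower.

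Genes of the TCA cycle had a median of 0.55, with 2 of 15 higher and 1 lower, all 3 subunits of succinate dehydrogenase. These shares were 13.3% and 6.67%, against 4.84% and 6.57% of all ORFs. After centring by coding length 1 gene of the list was at least 2-fold higher and 0 lower. SDH2 (YLL041C) was at 0.93 at 3 h, against -0.40 at 2 h, SDH1 at 0.30 at 3 h, against -0.83 at 2 h, and SDH3 (YKL141W), a membrane anchor, at -0.71 at 3 h, against 0.37 at 2 h. FUM1, fumarase, was level with -0.04 at 3 h against 0.09 at 2 h. Respiratory chain and ATP synthase genes had a median of -0.14, which was 0.08 after centring by coding length, with 0 of 31 higher and 1 lower. QCR2 of complex III had 0.99 and ATP1 of the ATP synthase 0.89, while INH1, its small inhibitor, was lower with -0.68 at 3 h against 0.55 at 2 h. Glyoxylate cycle and gluconeogenesis genes had a median of 0.24, with ICL2 and ACS1 highest at 0.92 and 0.89 and ALD6, an acetaldehyde dehydrogenase, at least 2-fold lower with -4.69 at 3 h against -3.49 at 2 h. Among 19 hexose transporters the median was 0.13, or -0.02 after centring by coding length, and 1 was higher, HXT9 with 1.31, and 3 lower, with HXT10 at -1.61 and HXT14 at -1.38. HXT14 was at 4.24 at 4 h, and the mean of 3 and 4 h minus that of 1 and 2 h turned its direction, with 1.2.

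The remaining nutrient and stress lists had medians between -0.28 and 0.33, with members on both sides of 0. Over all ORFs 4.84% were at least 2-fold higher and 6.57% lower. Nitrogen use genes had a median of -0.15 and 0 of 25 at least 2-fold apart, with CAR1 (arginase) at 0.65 and DAL3, of allantoin breakdown, at -0.86. Amino acid biosynthesis had a median of 0.02, with ARG80, a regulator of arginine genes, 1.35 and ARG3, an enzyme of that pathway, -1.62. Sulfate and methionine genes had a median of 0.08, with 3 of 28 higher and 2 lower. After centring by coding length the median was -0.03, with 0 higher and 3 lower. CYS4 was at -1.49 at 3 h, against -2.59 at 2 h. CYS3, the next enzyme of cysteine synthesis, was at -1.71 at 3 h, against -0.48 at 2 h. Enzymes of a single pathway thus lay on both sides of 0. Purine and pyrimidine genes had a median of -0.01, with IMD4, an enzyme of guanine nucleotide synthesis, lowest at -1.71 and ADE57 highest at 0.90. Sterol genes had a median of 0.18, with HMG2, an HMG-CoA reductase, at 1.35 and its paralogue HMG1 at -0.86.

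Oxidative stress genes had a median of -0.28 and 3 of 17 at least 2-fold lower, led by SOD1, the copper-zinc superoxide dismutase, with -1.30 at 3 h against 0.41 at 2 h. The lower share was 17.6%, against 6.57% of all ORFs. Storage carbohydrate genes had a median of 0.33, with NTH2, a trehalase, at 0.87 and TSL1 of trehalose synthesis at -1.26. Iron uptake genes had a median of 0.04, with FIT2, a cell wall mannoprotein, at -1.17 and ENB1, a transporter, at 0.65. In the mating list the pheromone gene MF(ALPHA)2 was at -0.79 at 3 h, against 0.75 at 2 h and the kinase FUS3 at 0.80 at 3 h, against 1.84 at 2 h, the 2 of 15 genes that were at least 2-fold lower. Genes of septins, budding and daughter cell separation had 0 of 21 higher and 5 lower (23.8%), with a median of -0.30. EGT2 (YNL327W), a cell wall protein of daughter separation, was at -2.85 at 3 h, against -0.65 at 2 h, and CTS1, the chitinase of that step, at -2.57 at 3 h, against -0.99 at 2 h. DSE1, SCW11 and ASH1, chosen after their values were seen, had -1.42, -1.25 and -1.37. All 5 are known from dividing cells for expression in newly formed daughters. The septin gene CDC12 had 0.53.

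Outside the lists, the largest positive difference belonged to FAR3 (YMR052W), needed for arrest by mating pheromone, with 1.55 at 3 h against -1.17 at 2 h. At 1 and 4 h it was at 1.82 and 1.23, so the difference of 2.71 rests on a low value at 2 h. SPO1 (YNL012W), a meiotic protein similar to phospholipase B, was at 4.05 at 3 h, against 1.71 at 2 h, with 1.91 at 1 h and 3.57 at 4 h. GMC1 (YDR506C) was at 3.06 at 3 h, against 1.06 at 2 h, with 0.98 at 1 h and 2.91 at 4 h, and so has the same step as GMC2. SDD3 (YOL098C) was at -0.28 at 3 h, against -2.07 at 2 h. Of ORFs without a gene name, YJR124C was at 1.10 at 3 h, against -0.84 at 2 h, and YKR005C at 3.40 at 3 h, against 1.56 at 2 h, with 4.81 at 4 h.

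At the other end stood NRS1 (YLR053C), a regulator of cell cycle start under poor nitrogen, with 0.80 at 3 h against 3.65 at 2 h, a difference of -2.86 or 7.25-fold. Its values at 1 and 4 h were 5.11 and 0.29, lower in each of the first 4 samples than in the one before. IRC10 (YOL015W) was at -0.40 at 3 h, against 2.45 at 2 h and back at 2.42 at 4 h, a low value at 3 h alone. TRM12 (YML005W), an enzyme of tRNA modification, was at -1.03 at 3 h, against 1.74 at 2 h, and TFS1 (YLR178C), an inhibitor of carboxypeptidase Y, at -2.31 at 3 h, against 0.23 at 2 h. MOR1 (YDR366C) had a difference of -2.43, TRS65, of the TRAPP trafficking complex, -2.32, SPG1, of stationary phase, -2.29, SIP18, a protein of dehydration stress, -2.23, and MSH3, of mismatch repair, -2.16. For TFS1 and MSH3 the level at 4 h, -2.67 and -1.13, was as low as at 3 h. Of ORFs without a gene name, YKL153W was at -3.42 at 3 h, against -0.93 at 2 h, and YOR203W at -0.14 at 3 h, against 2.30 at 2 h. By its systematic name YKL153W is numbered next to GPM1 (YKL152C), which was lower at 3 h too, and the reference table holds no gene under that name. Whether the 2 ORFs overlap and share signal on the array was not examined.

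The same ORFs were also followed between 4 h and 1 h, 2 samples that share no array with 3 h and 2 h. They span a longer interval that contains the step, so that the comparison is no replicate of the step. A 0 h measurement common to all columns cancels in both differences. Of the 273 ORFs higher at 3 h than at 2 h, 145 (53.1%) were at least 2-fold higher at 4 h than at 1 h and 4 were at least 2-fold lower, where 11.9% of all ORFs were higher and 11.9% lower. Their median difference of 4 h and 1 h was 1.07, and 250 (91.6%) were above 0, where 47% of all ORFs were. Of the 370 lower ORFs, 196 (53.0%) were at least 2-fold lower at 4 h than at 1 h and 22 were higher. Their median was -1.04, and 317 (85.7%) were below 0, where 53% of all ORFs were. Across the 5635 ORFs the 2 differences had a Pearson correlation of 0.52 and a Spearman correlation of 0.55, as a description over ORFs measured on the same 4 arrays. Most members of the higher and of the lower set thus had the same sign in both differences.

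**Figure D4:**
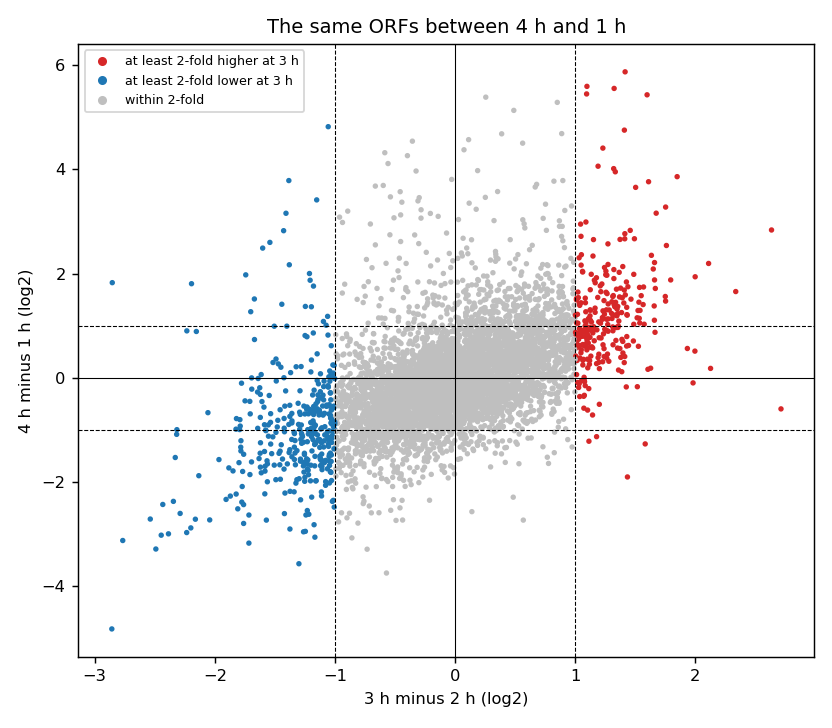
Difference of 4 h and 1 h (log2, vertical axis) against the difference of 3 h and 2 h (log2, horizontal axis) for 5635 ORFs, with dashed lines at a 2-fold difference. Of the 273 ORFs at least 2-fold higher at 3 h (red), 250 lie above 0 on the vertical axis, and of the 370 at least 2-fold lower (blue), 317 lie below 0. Of all ORFs 47% lie above 0 and 53% below.

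Lists differed in this respect. The core histones were at a median of -1.18 between 3 h and 2 h but of 1.22 between 4 h and 1 h, since they were below 0 h at 1 h. The proteasome and the chaperones had 0.87 and 1.22 between 4 h and 1 h, glycolysis -1.78 and the axis list 1.99, each with the sign of the earlier difference. Ribosome biogenesis had -0.11, of the other sign. The spore wall and prospore membrane lists had 3.12 and 3.15 between 4 h and 1 h, against -0.31 and -0.03 between 3 h and 2 h.

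The shape of the courses was also counted. Of the 273 higher ORFs 248 (90.8%) were within 2-fold of their 3 h value at 4 h, 18 were higher still and 7 were lower. For 246 (90.1%) both 3 h and 4 h lay above both 1 h and 2 h, against 26.4% of all ORFs. The choice of the 273 fixed 3 h above 2 h in advance, so the 2 shares are not on equal terms. For 18 of the 273 the value at 1 h was at least 2-fold above that at 2 h, as it was for FAR3. Their median values at 1, 2, 3, 4, 5, 6 and 8 h were -0.49, -0.53, 0.77, 0.50, 0.17, -0.05 and 0.09. Of the 271 with values at all 7 times, 151 were highest at 3 h, and by their choice 2 h could not be the highest. Relative to 0 h, 68 were at least 2-fold below it at 2 h and within 2-fold at 3 h, and 69 were within 2-fold at 2 h and at least 2-fold above at 3 h. Of the rest, most were within 2-fold of 0 h in both samples or above it in both.

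Of the 370 lower ORFs 314 (84.9%) were within 2-fold of their 3 h value at 4 h, and 53 (14.3%) were at least 2-fold higher again, among them IRC10 and OSW1. For 310 (83.8%) both 3 h and 4 h lay below both 1 h and 2 h, against 30.4% of all ORFs. Here too the choice of the 370 fixed 3 h below 2 h in advance. For 24 of the 370 the value at 2 h was at least 2-fold above that at 1 h, HHF2 and HTB1 among them. The median values of the 370 over the course were 0.77, 0.72, -0.57, -0.21, -0.04, 0.27 and 0.03. Of the 368 with all values 179 were lowest at 3 h, and by their choice 2 h could not be the lowest. Relative to 0 h, 117 were at least 2-fold above it at 2 h and within 2-fold at 3 h, and 74 were within 2-fold at 2 h and at least 2-fold below at 3 h.

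Coding length moved with the difference. The length used is that listed for the gene in the R64 reference table. For some genes, such as DMC1 with 1097 bases, it is no multiple of 3 and so not the coding part alone. Correlations are a description over ORFs that share both arrays. Over 5179 ORFs with a length in that table, the Spearman correlation of length with the difference was 0.22 for 3 h minus 2 h. For the steps before and after it was -0.05 for 2 h minus 1 h, 0.10 for 4 h minus 3 h and -0.04 for 5 h minus 4 h. In the shortest of 10 length classes, ORFs of 78 to 483 bases, the median difference was -0.36, with 1.35% at least 2-fold higher and 15.6% lower. In class 9, of 2103 to 2796 bases, it was 0.19, with 8.88% higher and 2.12% lower, and in the longest class 0.03. After centring each ORF on its class median 219 ORFs (4.23%) were at least 2-fold higher and 267 (5.16%) lower. The part of length in the results above was not tested.

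**Figure D5:**
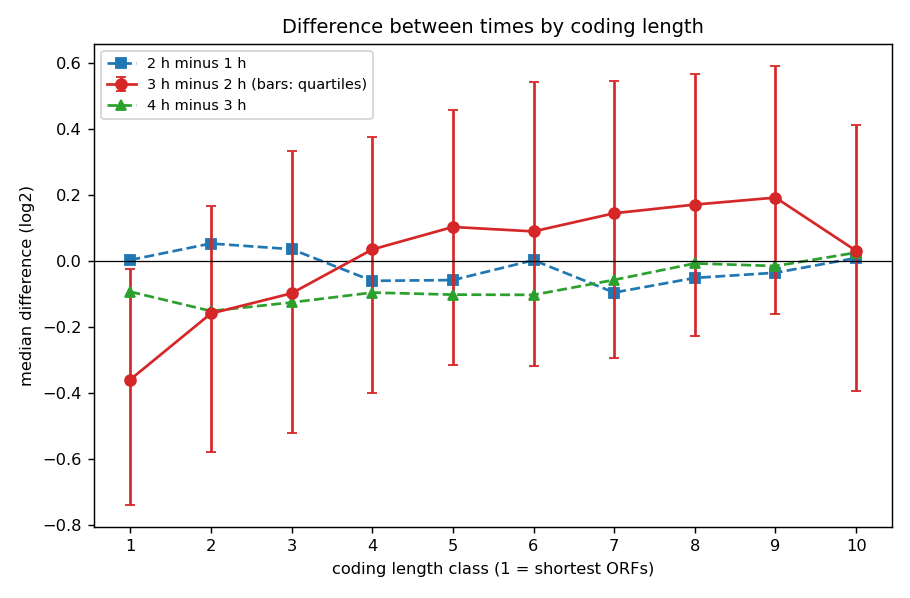
Median difference between neighbouring times (log2, vertical axis) in 10 classes of coding length, class 1 the shortest, with quartiles as bars for 3 h minus 2 h. For 3 h minus 2 h the median runs between -0.36 in class 1 and 0.19 in class 9, while the medians of 2 h minus 1 h stay within 0.10 of 0.

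ORFs without a locus tag in the R64 table, which have no coding length here, were counted apart. Of 441 such ORFs 76 (17.2%) were at least 2-fold lower at 3 h and 15 (3.40%) higher, with a median of -0.24. Of the 5194 ORFs with a locus tag 294 (5.66%) were lower and 258 (4.97%) higher, with a median of 0.02.

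The differences of neighbouring genes had a correlation near 0. Over 4507 pairs of neighbours in the order of the reference table the Pearson correlation was 0.02, with 0.07 for 1151 divergent, -0.00 for 2185 tandem and 0.01 for 1171 convergent pairs, as descriptions over pairs that share arrays. In 22 pairs both genes were at least 2-fold higher, and in 14 both were lower. Both H3 and H4 gene pairs, HHF1 with HHT1 and HHT2 with HHF2, were among the divergent pairs lower together, as were DIT1 and DIT2. REC8 and its divergent neighbour HAA1, a transcription factor of acid stress, were higher together with 1.42 and 1.07, and REC114 and its divergent neighbour JLP2 with 1.65 and 1.08. These pairs were chosen after their values were seen. Counted once for each pair they belong to, 32 of 238 higher genes in tandem pairs (13.4%) had a higher neighbour, where 5.45% of all members of tandem pairs were higher, and 10 of 206 lower ones (4.85%) had a lower neighbour, where 4.71% were lower. In divergent pairs 7.69% of higher genes had a higher neighbour and 9.93% of lower genes a lower one, where 4.52% of members were higher and 6.13% lower. In convergent pairs it was 3.92% and 2.35%, where 4.36% were higher and 7.26% lower.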

How the data were processed

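Polyadenylated RNA of spo11-Y135F cells was measured on 2-colour arrays at 7 times, per the labels. The authors deposited 1 table of log2 ratios, each the Cy5 to Cy3 ratio at a time divided by that at 0 h. The array platform, probes, build, background correction, normalization and spot filters are unstated in the sources used here, and no intensities were analysed, so signal over background is unknown. Every sample's title names the mutant, but the descriptions at 1 and 2 h do not.

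For each ORF the 2 h value was subtracted from the 3 h value without further scaling, and differences of log2 of at least 1 in size were counted. With 1 array at each time no test was made. ORF names were looked up among the locus tags of an R64 reference table for names, gene order and length (5194 of 5635 ORFs, 92.2%). The listed gene lengths were used as coding lengths. Of the lengths used 96.9% are multiples of 3, and the others are not the length of the coding part alone. Start positions in that table gave the gene order. Promoter sequences were not in the sources used here, and a planned search for promoter motifs was not run. Lists are described by counts and medians. The members and the 44 gene lists were chosen with earlier results of these data known. Named were a set of fixed genes, the 12 largest differences each way with a gene name, the 2 highest and 2 lowest of each list, and 2 each way without a gene name; others are marked as chosen after their values were seen. Alternatives were columns centred on their median, quantile normalization of all 7 columns, thresholds of 1.5-fold and 3-fold, ORFs with all 7 values, means of 3 and 4 h minus means of 1 and 2 h, and, chosen after seeing the data, centring within length classes. The counting was tested on simulated data. A few single genes are left unreported. Python 3.11.15 with pandas 2.3.3, numpy 2.4.6 and matplotlib 3.10.9 was used.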

Additional observations from a re-analysis of the deposited data

How the results depend on the processing

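The number of ORFs higher at 3 h than at 2 h depended most on the threshold and scaling. It was 273 as reported, 555 after quantile normalization, 920 at 1.5-fold and 28 at 3-fold, and the number lower was 370 as reported, 553 after quantile normalization, 1027 at 1.5-fold and 75 at 3-fold. Centring the columns gave 297 higher and 354 lower, ORFs with all 7 values 271 and 368, and centring by coding length 219 and 267. After quantile normalization, which widens the 2 h and 3 h columns, the median difference of the core histones was -1.86. That of the axis and synaptonemal complex list was 0.52, and the other 42 lists moved by less than 1.5-fold. The part of the widening in these medians was not tested. Means of 3 and 4 h minus means of 1 and 2 h gave 390 higher and 394 lower, and by construction bring in 1 and 4 h. By this measure the medians were -0.050 for core histones, 0.94 for the ZMM list, 1.25 for middle control, 1.63 for the prospore membrane and 1.47 for the spore wall, while SPO12 turned to 0.083 and HXT14 to 1.2. No list median moved by 1.5-fold under column centring, length centring or the restriction to all 7 times. No paired analysis was possible because each time has 1 array and the labels carry no replicate numbers. A filter on low values was not run, since log ratios hold no intensity. The smallest reliable difference is unknown without replicates.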
